A study of Rattus norvegicus with 20 samples.

Results

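Cytosolic ribosomal protein genes encode the protein subunits of the ribosome that translates nuclear-encoded mRNA. They were chosen by symbol (Rpl, Rplp or Rps followed by a digit, with the S6 kinase genes left out) among probe sets that carry exactly 1 gene, and 49 of 14217 genes met the rule. Of these, 34 have symbols of the large 60S subunit and 15 of the small 40S subunit. The core of the set is 41 genes, and the other 8 are paralogs or named pseudogenes: Rpl3l, Rpl7l1, Rpl26l1, Rpl39l1, Rpl37-ps2, Rps27l, Rps4x-ps1 and Rps4y2. A further 36 probe sets carry several genes including a ribosomal protein symbol, and they were left out of the 49. Rplp1, Rplp2, Rps4x, Rps14, Rps19, Rpl22l1, Rpl39l and Rpl36al had no single-gene probe set here.

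The samples came from left ventricle of Dahl rats, in which dietary salt raises blood pressure to an extent that depends on the line. The failed heart was labelled as congestive heart failure and the other heart as normal; both were 19 weeks old, except that the label of the normal H4ac sample gives no age. A high-sodium diet is named for the failed mRNA sample only, and both mRNA samples are labelled as left ventricular myocytes. Each heart had 10 expression arrays. One read mRNA, another genomic DNA from before the immunoprecipitation (pre-IP), and 8 read chromatin immunoprecipitates (ChIP). The antibodies were against acetylated H3 (H3ac), acetylated H4 (H4ac) and 6 lysine methylations whose histone the labels leave out: the dimethyl marks K4me2, K9me2 and K27me2 and the trimethyl marks K4me3, K9me3 and K20me3. One specimen was used for each experiment and there was 1 array per assay and heart, so replicate errors and tests of a difference could not be had, and differences between the hearts cannot be told apart from differences between any 2 animals or arrays. The labels of the normal H4ac array give pre-IP DNA as source but the H4 antibody elsewhere, and it was used as H4ac.

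The ribosome is built from ribosomal RNA and its proteins, nearly all in equal number, and its assembly in the nucleolus takes a large share of a growing cell's transcription. Many ribosomal protein mRNAs begin with a C followed by a run of pyrimidines, the terminal oligopyrimidine (TOP) motif, through which their translation follows the kinase complex mTORC1 and the RNA-binding protein Larp1. Cardiac hypertrophy is accompanied by more ribosome production. In mammals, reverse-transcribed ribosomal protein mRNAs have also left many processed pseudogenes in the genome, so DNA hybridised to a ribosomal protein probe set can come from the gene itself and from its copies.

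Promoter sequences from RefSeq (rat build GRCr8) were matched to 42 of the 49 members, 40 by gene identifier and 2 by symbol. Of these 42, 12 (28.6%) had a C at the annotated start followed by 4 bases that were each C or T, against 2.63% of 33469 promoters in the same table. A run of at least 7 C or T bases within 10 bases of the annotated start was held by 29 of the 42 (69.0%), against 19.6% of all promoters. Windows of 80 bases are shown for 6 genes, 50 before the annotated start and 30 from it, on the gene's strand, with runs of at least 7 pyrimidines at the start in capitals. They show the mRNA difference at its highest (Rps24), 3 members with the pyrimidine start (Rpl19, Rpl35a and Rps15, the first 2 of which turn up again in the genomic DNA and mark results), and the pair Rpl3 and Rpl3l, a general 60S protein and its striated-muscle paralog, whose mRNA values went opposite ways. They lie at chr16:96467-96546 (plus strand) for Rps24, chr10:83519014-83519093 (plus) for Rpl19, chr11:81234992-81235071 (minus) for Rpl35a, chr7:10068086-10068165 (minus) for Rps15, chr7:113507961-113508040 (minus) for Rpl3 and chr10:14258396-14258475 (plus) for Rpl3l.
Rps24: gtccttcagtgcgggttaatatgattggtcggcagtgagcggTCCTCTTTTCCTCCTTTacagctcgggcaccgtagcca
Rpl19: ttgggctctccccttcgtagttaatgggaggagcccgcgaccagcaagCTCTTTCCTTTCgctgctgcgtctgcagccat
Rpl35a: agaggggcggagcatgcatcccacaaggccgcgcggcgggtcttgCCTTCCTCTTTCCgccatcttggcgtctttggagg
Rps15: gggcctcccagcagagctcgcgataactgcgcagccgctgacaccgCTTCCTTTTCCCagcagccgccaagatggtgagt
Rpl3: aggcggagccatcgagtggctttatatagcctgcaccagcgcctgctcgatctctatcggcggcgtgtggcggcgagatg
Rpl3l: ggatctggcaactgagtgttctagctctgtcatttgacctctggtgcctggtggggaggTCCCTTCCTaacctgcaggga
The run is 17 bases long in Rps24, 12 in Rpl19, 13 in Rpl35a and 12 in Rps15. Rpl3 has no run of that length at its annotated start, and the run of 9 bases in Rpl3l lies after the start. An annotated start can differ from the start used in the heart, and the arrays do not read it. Searched on both strands of the whole 300-base windows, GGGCGG (the GC box) was in 25 of 42 members (59.5%) against 33.1% of all promoters, CCGGAAG (bound by ETS factors) in 10 (23.8%) against 8.75%, and AAGATGG (bound by YY1, and also the letters around many start codons) in 8 (19.0%) against 7.01%. TATAAA was in 6 (14.3%) against 14.2% and CACGTG (the E-box) in 3 (7.14%) against 6.42%.

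Members were among the brightest mRNA signals in both hearts. Levels are log2 intensities after each array was scaled to a median of 100, which is 6.64 on this scale. The members' median was 12.73 in the failed heart and 11.80 in the normal heart, against 7.62 and 7.49 over all genes. By mean level, 36 of 49 members (73.5%) stood in the top 10% of genes. A probe set's brightness also depends on its own probes, so these levels order probe sets and not amounts of RNA. The brightest were Rps23, an uS12 protein at the decoding centre, with 14.75 in the failed heart and 14.21 in the normal heart, Rps29 with 14.72 and 14.10, and Rps28 with 14.62 and 13.70. The dimmest were Rps4x-ps1, a named pseudogene, with 3.32 (the floor) in the failed heart and 4.22 in the normal heart, Rpl39l1 with 3.64 and 3.93, and Rpl30 with 3.90 and 6.09.

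Most members gave more mRNA signal in the failed than in the normal heart, and the gap to other genes was smaller among bright probe sets. A difference is the failed log2 level minus the normal one, so 1 is 2-fold. Among the 45 members with a mean level at or above the array median, the median difference was 0.74, against 0.23 over 9210 genes that passed the same filter. Values were above 0 for 40 of the 45 (88.9%), against 64.1% of all genes. At least 2-fold higher were 8 members (17.8%), Rps24, Rps3, Rpl6, Rps15a, Rpl5, Rpl7a, Rpl12 and Rpl4, against 11.9% of all genes. At least 2-fold lower was 1 member (2.22%), Rpl39, against 3.07% of all genes.

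The gap narrowed when only bright genes were used. In the top 10% of genes by mean mRNA level, most of which are dimmer than most members, the 36 members had a median difference of 0.84 and the 1422 genes one of 0.54. All 36 members in that class were above 0, against 79.8% of its genes, while 8 of 36 (22.2%) were at least 2-fold higher, against 23.0% of its genes. With a mean level of at least 12, the medians were 0.74 for 27 members and 0.66 for 221 genes, and with a mean level of at least 13, they were 0.65 for 16 members and 0.62 for 84 genes. With quantile normalization, which forces all arrays to 1 distribution, the members' median difference was 0.17 against 0.00 over all genes, and 0 members were at least 2-fold higher. The general shift of bright probe sets between these 2 arrays thus moved with the members' values, and its part in them was not tested.

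**Figure D1:**
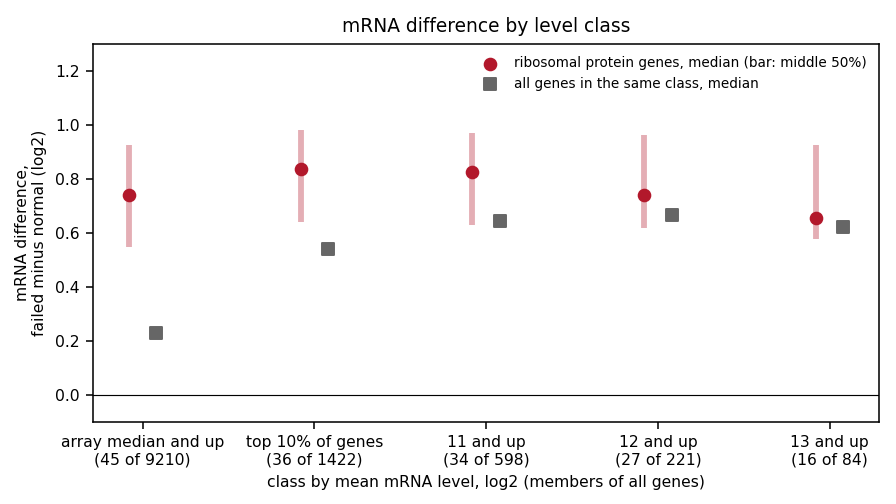
Median mRNA difference (failed minus normal, log2) of ribosomal protein genes (red circles, bars from the lower to the upper quartile) and of all genes (grey squares) in 5 classes of mean mRNA level; the numbers of members and genes are under each class. The 2 medians are 0.74 and 0.23 at levels of at least 6.64, and 0.65 and 0.62 at levels of at least 13.

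Core members are given by role. The stalk base proteins, which recruit elongation factors to the 60S subunit, gave 11.29 in the failed heart and 10.44 in the normal heart for Rplp0, a difference of 0.85, and 12.73 and 11.72 for Rpl12, a difference of 1.01. Rpl5 and Rpl11 bind 5S ribosomal RNA and, when free of the ribosome, the p53 ligase Mdm2. Rpl5 had 14.00 in the failed heart and 12.86 in the normal heart, and Rpl11 had 13.56 and 12.62, differences of 1.14 and 0.94. The list of proteins that bind 5S RNA or Mdm2 had 4 measured members (Rpl5, Rpl11, Rpl23 and Rpl26), with a median of 0.80. All 4 were above 0, as were 79.8% of genes in the top 10% by mRNA level. Rpl4, which lines the exit tunnel, had 12.10 in the failed heart and 11.09 in the normal heart. Rpl39, a small protein of the same tunnel, had 6.74 in the failed heart and 8.62 in the normal heart, a difference of -1.87 and the lowest among members at or above the array median. The median of the 5 measured exit tunnel genes was 0.98.

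Among 40S proteins, Rps3, at the mRNA entry site, had 12.98 in the failed heart and 11.71 in the normal heart, a difference of 1.27. Rps24, one of the genes mutated in human Diamond-Blackfan anaemia, had 11.36 in the failed heart and 9.95 in the normal heart, a difference of 1.41, the highest of all members. Its other probe set had 8.39 and 8.36, a difference of 0.03, so the 2 probe sets of Rps24 disagreed. The 4 measured genes of the anaemia list (Rps24, Rpl5, Rpl11 and Rpl35a) had a median of 1.04. Rpl22, which also binds viral RNA, had 13.77 in the failed heart and 13.09 in the normal heart. Rps6, the substrate of the S6 kinases, had 14.35 in the failed heart and 13.72 in the normal heart, a difference of 0.62. Rps15a had a difference of 1.18, Rpl6 of 1.25 and Rpl7a of 1.01. Rpl13a, which also acts in translational silencing by interferon-gamma in human myeloid cells, had 14.09 in the failed heart and 13.91 in the normal heart; its difference of 0.17 was below 0 with the values as deposited (-0.09) and with quantile normalization (-0.72).

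Members with low differences were mostly dim or outside the core. The 41 core genes included 39 at or above the array median, with a median difference of 0.82. The 6 genes outside the core that passed had a median of 0.09, and none of them was 2-fold higher or lower. Rpl3l, which replaces Rpl3 in muscle ribosomes, had 9.14 in the failed heart and 9.40 in the normal heart, a difference of -0.26, whereas Rpl3 had 13.41 and 12.49, a difference of 0.92. The 2 genes thus differed in opposite directions, but the value for Rpl3l is small and has no error. Rps27l, a p53-induced paralog of Rps27, had 7.49 in the failed heart and 6.70 in the normal heart. Rpl26l1 gave -0.70, Rps4y2 -0.27 and Rpl39l1 -0.29. Rps13, a core 40S protein, had 6.32 in the failed heart and 7.10 in the normal heart, and Rpl28 had 5.81 and 6.30. Rpl30, with a difference of -2.19, lay below the array median in both hearts and does not enter the counts above. The failed value of Rps4x-ps1 was at the floor, so its difference of -0.90 rests on a bound.

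**Figure D2:**
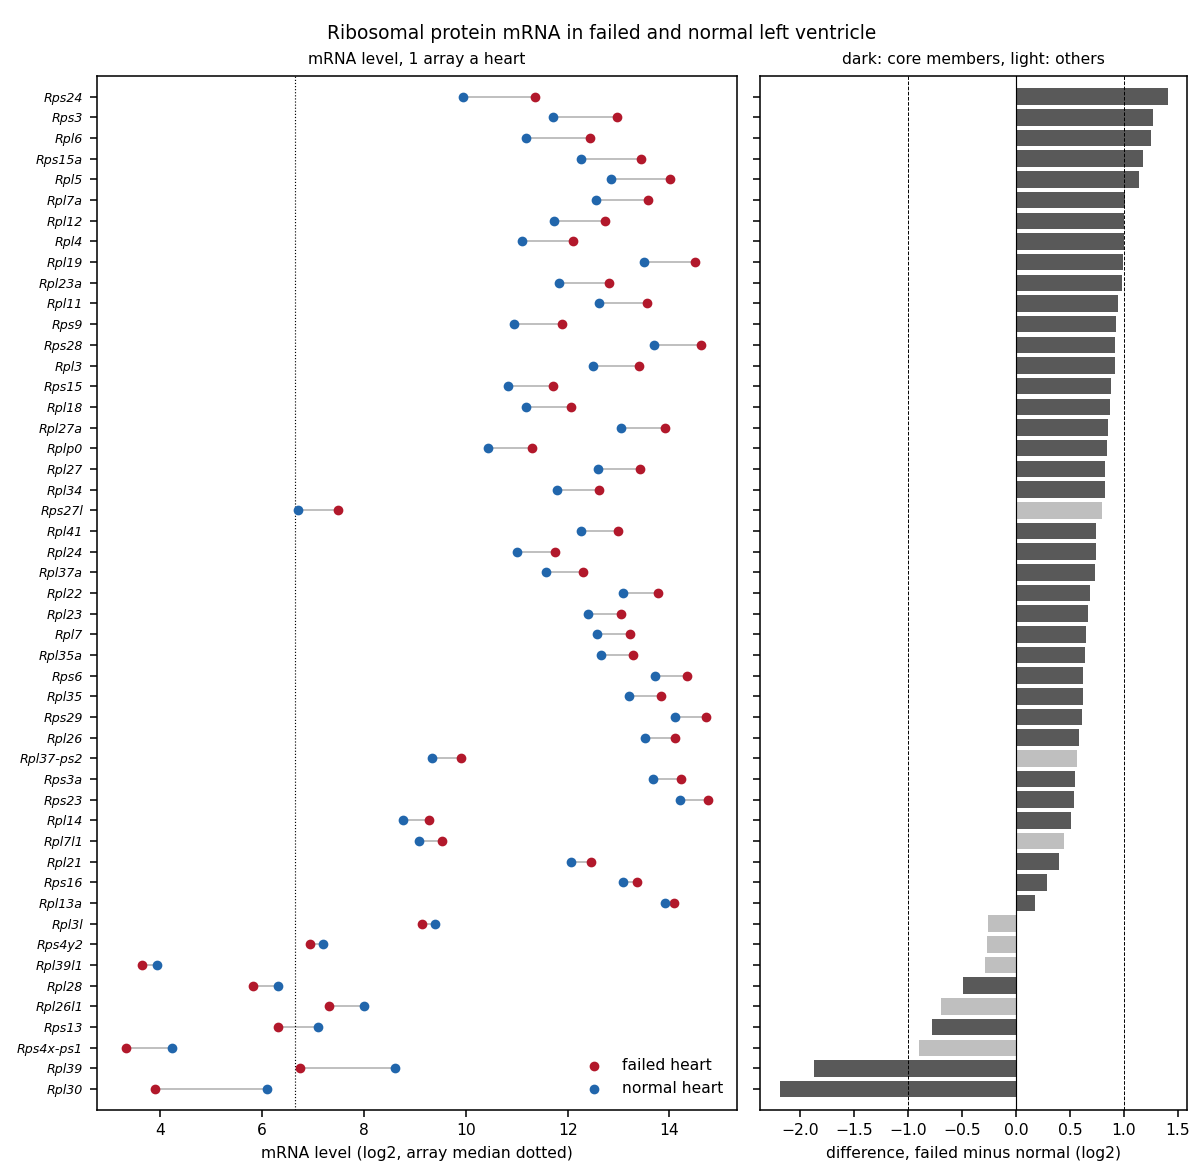
mRNA levels of the 49 members (left, log2; red, failed heart; blue, normal heart; dotted line, array median) and their differences (right, failed minus normal; dark bars, core genes; light bars, paralogs and named pseudogenes; dashed lines, 2-fold). Differences run between 1.41 for Rps24 and -2.19 for Rpl30, and 40 of the 49 members, all of them at or above the array median, lie above 0.

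Other genes of the translation machinery were counted in the same way. Among all genes that passed the level filter, 11.9% reached 2-fold towards the failed heart and 3.07% towards the normal heart. In the top 10% by mean mRNA level, 23.0% did so towards the failed heart, with a median difference of 0.54. The lists varied in brightness, with median mRNA levels between 8.43 for ribosome biogenesis and 11.68 for other TOP mRNAs. Whether they differ from equally bright genes was not tested. Of 9 elongation factor genes, 2 were at least 2-fold higher in the failed heart and 0 were lower; their median difference was 0.85, between 1.14 for Eef1g and -0.03 for Eef1a2, the muscle form of the factor that brings tRNA to the ribosome. Of 29 initiation factor genes, 8 were at least 2-fold higher and 0 lower, with a median of 0.76. Eif3a, a scaffold subunit of eIF3, had 11.53 in the failed heart and 9.92 in the normal heart, the highest of them, and Eif2b3 was lowest at -0.77. Of 29 ribosome biogenesis genes, 3 were at least 2-fold higher and 0 lower, with a median of 0.44, between Tsr1 at 1.19 and Dkc1 at -0.69. In the mTORC1 and S6 kinase pathway, 1 of 15 genes was at least 2-fold higher (Rheb, the GTPase that activates mTORC1, at 1.01) and 1 lower (Tsc2, which restrains Rheb, at -1.32). Their median was 0.22, close to the 0.23 of all genes. Of 72 mitochondrial ribosomal protein genes, 12 were at least 2-fold higher and 0 lower, with a median of 0.65, between Mrps6 at 1.43 and Mrpl38 at -0.53. Other genes with TOP mRNAs had a median of 0.93 over 14 genes, 4 of them at least 2-fold higher, with Eef1g highest and Hnrnpa1 lowest at -0.36. This list overlaps the elongation and initiation factor lists in Eef1a1, Eef1b2, Eef1d, Eef1g, Eef2, Eif3f, Eif3h and Eif4b. Of the 4 genes at least 2-fold higher, Eef1g, Eef2 and Eif4b were thus counted above as well.

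Markers of cell types and RNA integrity also differed between the 2 mRNA arrays. Summed intensities of marker lists were 61480 in the failed heart and 27690 in the normal heart over 10 fibroblast markers, 13870 and 4788 over 14 macrophage and leukocyte markers, and 4357 and 1228 over 4 red blood cell markers. In the last list Hbb, a haemoglobin chain, had log2 levels of 11.92 in the failed heart and 9.79 in the normal heart and makes up most of the sum, while 1 of the 4 genes, Epb42, was more than 2-fold lower (difference -2.48). The sums were 210800 and 152000 over 12 cardiomyocyte markers, 14080 and 14630 over 9 endothelial markers, and 6354 and 8911 over 8 smooth muscle markers, of which 6 were at least 2-fold lower and 1 higher. No marker in these lists was at the floor on either array, but a value off the floor does not show that a transcript was present. Some lay just above the floor of 3.32, such as C1qb at 3.82 and Thy1 at 4.13 in the normal heart. Others were bright, such as Dcn at 13.55 in the failed heart and 12.77 in the normal heart. The labels speak of myocytes, and which cells the samples held was not tested. In such bulk samples, fewer cells of a type and less RNA per cell cannot be told apart. The ratio of 3' to 5' control probe sets for GAPDH was 22.6 in the failed heart and 11.3 in the normal heart. The same ratio for beta-actin was 12.4 in the failed heart and 18.2 in the normal heart. The part of cell makeup and RNA integrity in the members' mRNA values was not tested.

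On the pre-IP arrays, which read genomic DNA and not transcripts, member probe sets were far brighter than most. As with mRNA, a probe set's brightness here also depends on its own probes, so it is not a count of copies. The members' median pre-IP level was 9.53 in the failed heart and 9.83 in the normal heart, against 6.64 and 6.61 over all genes, which is 7.4-fold and 9.08-fold over the array median. Above the array median in both hearts were 47 of 49 members (95.9%), against 40.1% of all genes. At least 8-fold over it in both hearts were 23 members (46.9%), against 0.739% of all genes. In the top 10% of genes by mean pre-IP level were 37 members (75.5%). By comparison, the 73 genes for mitochondrial ribosomal proteins had a median of 7.45 in the failed heart and 7.21 in the normal heart.

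Rpl7a was the brightest member on DNA, with 13.12 in the failed heart and 13.13 in the normal heart, 89.2-fold over the array median and the 7th of all 14217 genes. Rpl35a had 11.89 in the failed heart and 12.08 in the normal heart, Rps23 had 11.69 and 12.25, Rps28 had 11.60 and 11.68, Rpl21 had 11.47 and 11.58, and Rpl35 had 11.05 and 11.67. At the other end stood Rps4x-ps1 with 4.20 in the failed heart and 5.08 in the normal heart, Rpl30 with 4.85 and 6.26, and Rpl28 with 6.71 and 6.66. Rpl26l1, Rpl39l1 and Rpl7l1, all outside the core, lay between 6.84 and 7.32 in the 2 hearts. Of the pair shown above, Rpl3 had 7.74 in the failed heart and 7.77 in the normal heart, and Rpl3l had 7.81 and 7.72, alike on DNA although their mRNA signals lay far apart. The members thus ran from below the array median to the brightest signals on the array, with nearly the same order in both hearts (Spearman's rho 0.97 over 49 members, which share probes between the arrays). Between the hearts, 0 members were at least 2-fold higher in the failed heart, against 3.85% of all genes above the median level. At least 2-fold lower were 2 of 47, Rps13 (7.28 in the failed heart, 8.78 in the normal heart) and Rps27l (7.08 and 8.15), or 4.26%, against 3.52% of those genes.

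The DNA signal was set beside the number of genome copies that the annotation names after each gene. In RefSeq for GRCr8, 1165 genes bear a symbol of the members' pattern, 858 of them annotated as pseudogenes and 304 as protein coding. Between 0 and 26 further genes were named after a member, most for Rpl7 and Rpl23a (26 each); Rpl7a had 21. Among core genes, the median pre-IP level was 9.68 for the 16 with the fewest named copies (1 to 11), 9.92 for 13 with 12 to 15, and 10.34 for 12 with 16 to 26. The ranges overlapped, with levels between 6.69 and 11.64 in the first class and between 7.63 and 13.12 in the last. Rpl41, chosen after its value was seen, had 1 named copy and a pre-IP level of 11.10 in the failed heart and 11.29 in the normal heart. Rpl30 had 15 and was below the array median, but its probe set was at the floor on 11 of the 20 arrays, all of them ChIP arrays. Spearman's rho of pre-IP level with named copies was 0.22 over the 41 core genes and 0.48 over all 49, as a description across genes. With pseudogenes named -ps alone it was 0.04 over the core genes. The value over all 49 rests partly on how copies were counted, since they were sought under each member's own symbol. The 8 genes outside the core had between 0 and 3, and a named pseudogene such as Rpl37-ps2 has 0 whatever its family holds. The counts for Rpl7, Rpl26 and Rpl39 each include another member. The names count copies regardless of whether they contain the stretch that the probes read, and probe sequences were not used here. The mRNA level had a rho with the pre-IP level of 0.51 over core genes and 0.70 over all members, against 0.20 over all genes. For members and for all genes alike, the same probes read both levels. Why the rho was higher over members was not tested.

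**Figure D3:**
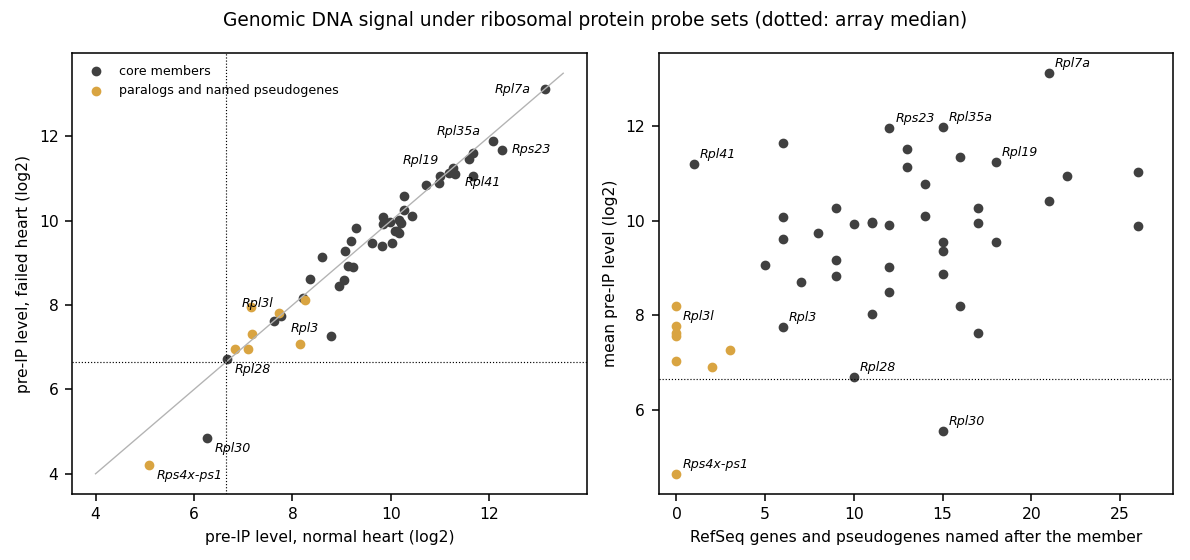
Pre-IP genomic DNA level of the 49 members: failed heart against normal heart (left) and mean of both hearts against the number of RefSeq genes and pseudogenes named after the member (right); dark, core genes; ochre, paralogs and named pseudogenes; dotted, array median; the grey diagonal marks equal levels. Rpl7a is highest at 13.12 and 13.13, while Rps4x-ps1 and Rpl30 lie below the array median in both hearts.

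Enrichment of a mark was its log2 ChIP level less the log2 pre-IP level in that heart, under probes designed for transcripts, not promoters. With that subtraction, the members' medians were above 0 in both hearts for acetylation and K4me2 and below 0 in both for the other marks except K9me3. For H3ac the members' median was 0.29 in the failed heart and 0.22 in the normal heart, against 0.04 and 0.05 over all genes. Of 49 members, 26 (53.1%) were above 0 in both hearts, against 36.8% of genes, and 12 (24.5%) below 0 in both, against 32.0%. The 49 include Rpl30 and Rps4x-ps1, for which some enrichments rest on floored values. For H4ac the medians were 0.04 in the failed heart and 0.16 in the normal heart; 22 members (44.9%) were above 0 in both, against 37.5% of genes. For K4me2 they were 0.84 and 0.18, with 31 members (63.3%) above 0 in both, against 36.3%. For K4me3 they were -0.26 in the failed heart and -0.13 in the normal heart, with 18 members (36.7%) below 0 in both, against 28.9%. For K9me2 they were -0.24 and -0.22, with 26 members (53.1%) below 0 in both, against 33.6%. For K9me3 they were -0.41 in the failed heart and 0.06 in the normal heart, for K20me3 -0.08 and -0.07, and for K27me2 -0.14 and -0.17.

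These medians depended on which genes they were set against. In the top 10% of genes by pre-IP level, the 37 members had an H3ac median of 0.23 in the failed heart and 0.19 in the normal heart, below the 0.55 and 0.49 of the 1422 genes. Their K9me2 median of -0.35 in the failed heart and -0.29 in the normal heart lay above the genes' -0.72 and -0.91. In that class 18 members (48.6%) were above 0 for H3ac in both hearts, against 60.1% of genes, and 10 of the 37 members were above 0 for K9me2 in both, against 10.3%. The K20me3 median in the class was -0.13 in the failed heart and -0.07 in the normal heart, against -0.54 and -0.49, and that of K27me2 was -0.16 and -0.17, against -0.54 and -0.58. For K4me2 the members' median in the class was 0.85 in the failed heart and 0.27 in the normal heart, against 0.88 and 0.51. So the members' medians lay above those of all genes for acetylation and K4me2. In the top 10% class they lay below the genes' medians for acetylation and K4me2. They lay above them there for K9me2, K9me3, K20me3 and K27me2. The class is not matched in brightness: members are more frequent among its brightest probe sets. Quantile normalization also turned the members' median, relative to all genes, to the other sign for 7 of the 8 marks, K4me3 excepted.

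**Figure D4:**
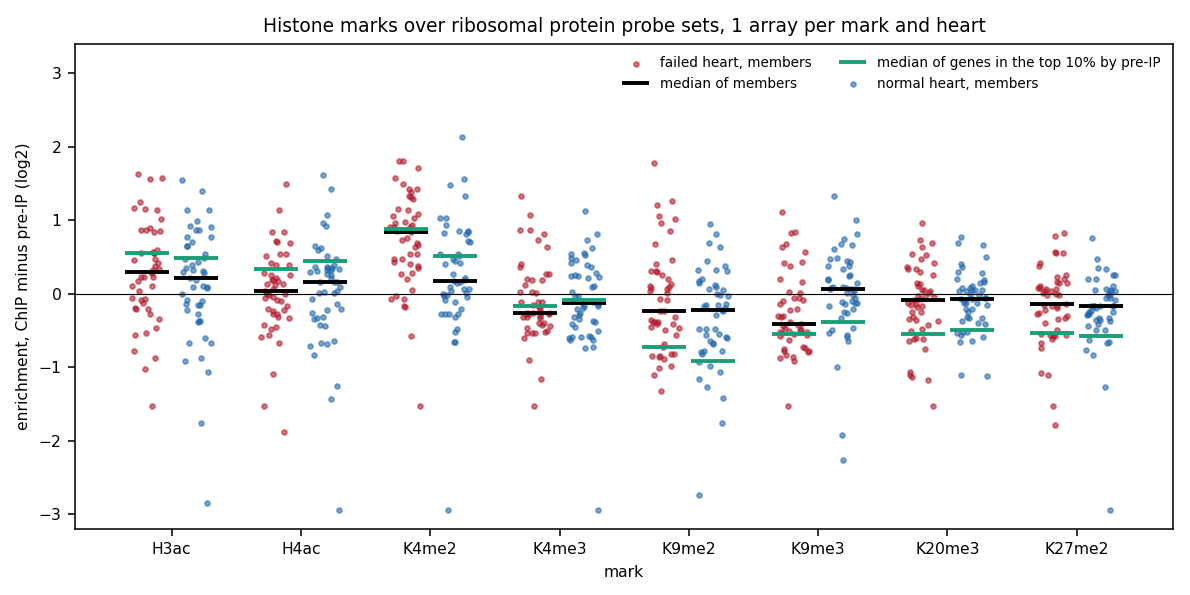
Enrichment (ChIP minus pre-IP, log2) of the 49 members for 8 marks, with 1 point a member, failed heart red and on the left, normal heart blue; black lines are members' medians and green lines are medians of the genes in the top 10% by pre-IP level. For H3ac the green lines (0.55 and 0.49) lie above the black ones, and for K9me2 (-0.72 and -0.91) below them.

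Members are ranked here by the mean enrichment of both hearts, among those without floored values. Rpl14 was first in H3ac, with 1.56 in the failed heart and 1.40 in the normal heart, and in K4me3, with 0.81 and 0.73. In single hearts others were higher, such as Rps13 in H3ac in the failed heart (1.63) and Rpl3l in the normal heart (1.54). Rpl37-ps2, a named pseudogene, was next in H3ac with 1.58 in the failed heart and 0.87 in the normal heart, and had the lowest mean in K20me3 with -1.13 in both. Rpl3l had the highest mean in H4ac with 1.50 in the failed heart and 1.61 in the normal heart, and had 1.58 and 1.56 for K4me2, where only Rps4y2 (1.49 and 2.13) had a higher mean. Rpl3, in contrast, had 0.71 in the failed heart and 0.40 in the normal heart for H4ac and 0.69 and -0.01 for K4me2, and it had the highest mean in K9me3 (1.12 and 0.82) and K27me2 (0.79 and 0.26). For K20me3 Rpl3l had 0.54 in the failed heart and 0.41 in the normal heart, and Rpl3 had 0.42 and -0.66. So the muscle paralog was above the general gene in H4ac, K4me2 and K20me3 in both hearts. It was below the general gene in K9me3 and K27me2 in both. For H3ac, K4me3 and K9me2 the order of the 2 genes turned between the hearts.

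At the low end, Rpl19 had H3ac enrichments of -1.02 in the failed heart and -1.07 in the normal heart and H4ac enrichments of -1.10 and -0.83, with 0.20 and 0.31 for K9me2 and 0.34 and 0.77 for K20me3. Rpl7a, the member brightest on DNA, had -0.77 in the failed heart and -0.91 in the normal heart for H3ac. Rpl39l1, hardly above the floor in mRNA, had the lowest mean in H4ac with -1.88 in the failed heart and -1.43 in the normal heart and in K4me2 with -0.58 and -0.66, and had 1.06 and 0.63 for K9me2. Rps6 stood apart from these. It was low in K27me2 (-1.78 in the failed heart, -1.27 in the normal heart), K9me2 (-1.33 and -1.42) and K4me3 (-1.16 and -0.74), without a high H3ac value (-0.57 and -0.28). For K9me3 the lowest after Rpl37-ps2 (-0.56 in the failed heart, -2.27 in the normal heart) was Rpl41 with -0.63 and -0.998. Other members at the ends of their mark were Rps3a in K9me3 (0.63 in the failed heart, 0.75 in the normal heart), Rpl23a in K27me2 (0.38 and 0.48), Rps16 in K20me3 (-1.18 and -0.38), Rpl22 in K4me3 (-0.54 and -0.73) and Rpl7l1 in K27me2 (-1.08 and -0.83) and K4me2 (-0.16 and -0.52). Rps27l was high in K9me2 (1.77 in the failed heart, 0.20 in the normal heart) and Rps13 low (-0.41 and -2.74), both far apart between the hearts, while the values of Rpl23a and Rpl22 lay close together.

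Between the hearts, K4me2 had the largest median difference over members of the 8 marks with this scaling. Their median K4me2 enrichment difference, failed minus normal, was 0.42 over the 47 members at or above the filter level, against 0.14 over 6906 genes. Values were above 0 for 44 of 47 (93.6%), against 58.3% of genes. At least 2-fold higher were 5 members (10.6%), Rps13, Rps27l, Rpl11, Rps16 and Rps3a, against 11.5% of genes, and 0 were at least 2-fold lower, against 6.52%. Rpl11 had 1.39 in the failed heart and 0.27 in the normal heart, Rps16 had 0.76 and -0.28, and Rps3a had 0.38 and -0.66. The pre-IP differences of these genes, failed minus normal, were -0.45, -0.37 and -0.46. On the K4me2 arrays, before pre-IP was subtracted, Rpl11 had 9.98 in the failed heart and 9.32 in the normal heart. Rps16 had 10.51 and 9.84, Rps3a 10.10 and 9.51, Rps13 9.08 and 8.74, and Rps27l 8.80 and 8.34. None of the 5 was 2-fold apart on those arrays. Rps13 (1.80 in the failed heart, -0.04 in the normal heart) and Rps27l (1.71 and 0.19) had pre-IP signals more than 2-fold lower in the failed heart. No other member that passed the pre-IP level filter did so. Rpl30, which did not pass, was also more than 2-fold lower on DNA (4.85 in the failed heart, 6.26 in the normal heart). Rps13 and Rps27l were also at least 2-fold higher in H3ac, K4me3 and K9me2 enrichment. Among the top 10% by pre-IP level the K4me2 medians came closer, 0.42 for members and 0.32 for genes, and with quantile normalization they were 0.10 for members and -0.04 over all genes. The K4me2 arrays themselves gave medians of 10.40 in the failed heart and 9.92 in the normal heart over members, before pre-IP was subtracted.

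The other marks are given in turn. H3ac was at least 2-fold higher at 2 of 47 members (4.26%), Rps13 and Rps27l, against 10.6% of genes, and lower at 0, against 8.62%, with a median difference of 0.13 against 0.03. K9me2 was at least 2-fold higher at 2 of 46 (4.35%), the same 2 genes, against 15.9%, and lower at 0, against 9.14%. K4me3 was at least 2-fold higher at these 2 (4.26%, against 8.86% of genes) and lower at 2 (4.26%), Rps29 and Rps4y2, against 9.79%. K9me3 was at least 2-fold higher at 1 of 47 (2.13%), Rpl37-ps2, against 9.03% of genes, and lower at 5 of 47 (10.6%), Rpl14, Rpl3l, Rpl7, Rplp0 and Rps4y2, against 11.4%, with a median of -0.28 against -0.07. For H4ac, K20me3 and K27me2 the members' medians were -0.12, -0.04 and 0.00, against -0.07, -0.02 and 0.03 over all genes. At least 2-fold higher were 1 member for H4ac (2.17%, against 4.87% of genes), 2 for K20me3 (4.35%, against 8.79%) and 1 for K27me2 (2.17%, against 6.86%), and at least 2-fold lower were 0 members for H4ac (against 6.47%), 0 for K20me3 (against 8.47%) and 0 for K27me2 (against 6.32%). Across 47 members without floored values, Spearman's rho between a mark's enrichment difference and the mRNA difference lay between -0.07 for K9me2 and 0.11 for K20me3, as a description across genes of 1 pair of hearts.

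A comparison that needs no pre-IP value is that of 2 ChIP arrays under the same probe set. By H3ac level minus K9me2 level, members spread over about 4 log2 units, and the order was much alike in the 2 hearts (Spearman's rho 0.85 over the 47 members without floored values, which share probes). Rps13 was highest in mean, with 2.03 in the failed heart and 2.81 in the normal heart, followed by Rpl37-ps2 with 2.68 and 2.04. Rpl37a, chosen after its value was seen, had 1.75 in the failed heart and 1.73 in the normal heart, and Rplp0 had 1.70 and 1.47. At least 2-fold towards H3ac in both hearts were 10 members (20.4%), against 17.3% of genes. At least 2-fold towards K9me2 in both hearts were 4 (8.16%), against 14.6%. These were Rpl39l1 (-1.41 in the failed heart, -1.23 in the normal heart), Rpl19 (-1.23 and -1.38), Rps3a (-1.28 and -1.25) and Rpl7a (-1.08 and -1.24). Rpl5 lay near 0 with -0.31 in the failed heart and -0.21 in the normal heart. Above 0 in both hearts were 36 members (73.5%), against 40.4% of genes, and below 0 in both were 9 (18.4%), against 37.6%. Most of those genes were dimmer on DNA than most members, and these counts were not made among bright genes. In the top 10% by pre-IP level, the genes' median enrichments were 0.55 and 0.49 for H3ac and -0.72 and -0.91 for K9me2. The members' medians there lay closer together, at 0.23 and 0.19 for H3ac and -0.35 and -0.29 for K9me2.

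Where 0 lies on that axis depended on the scaling, and the order of members did so less. With quantile normalization 8 members were above 0 in both hearts and 32 below, and with the values as deposited the counts were 20 and 23. The order with quantile normalization had a rho of 0.79 with the one given, 8 of the 9 lowest members were shared, and 7 of the 10 highest. Rpl7a left the lowest 9, and Rpl14, Rps15 and Rps29 left the highest 10. Rpl19, Rpl39l1 and Rps3a were among the lowest 9 and Rps13, Rpl37-ps2, Rpl37a and Rplp0 among the highest 10 in both. Over the 40 core genes without floored values, the H3ac minus K9me2 level had a rho with the pre-IP level of -0.30 in the failed heart and -0.37 in the normal heart, and with the number of named copies of -0.21 and -0.12.

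**Figure D5:**
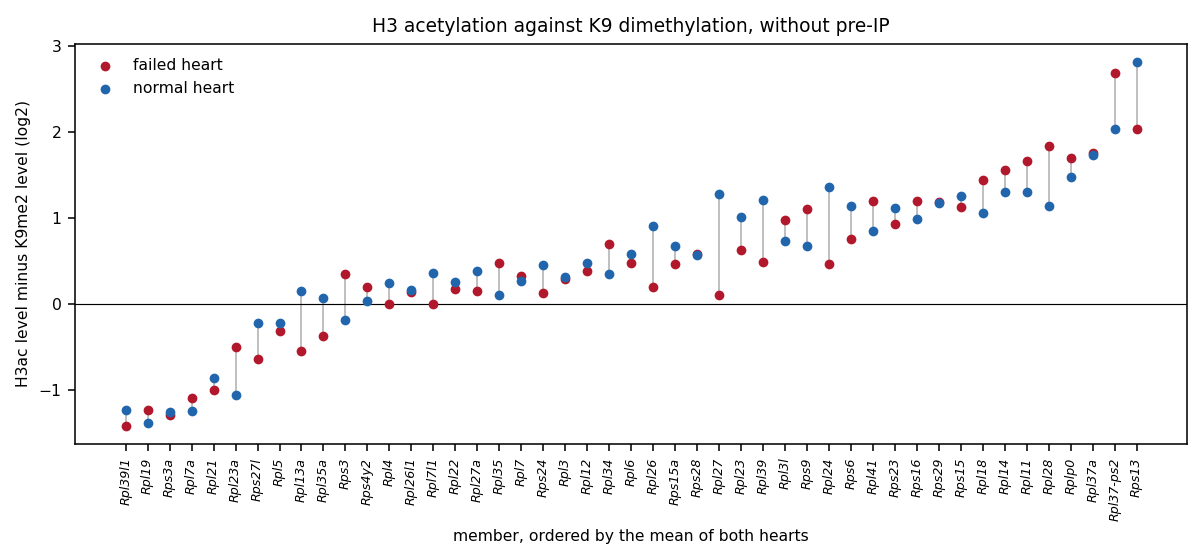
H3ac level minus K9me2 level (log2, no pre-IP used) of the 47 members without floored values, ordered by the mean of both hearts; red, failed heart; blue, normal heart. Rpl39l1, Rpl19, Rps3a and Rpl7a lie below -1 in both hearts, and Rps13 and Rpl37-ps2 lie above 2 in both.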

How the data were processed

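Values are linear intensities, 1 per probe set and array, as deposited for 20 Affymetrix rat expression arrays. Per the labels' protocols, RNA was amplified into biotinylated cDNA, and fragmented DNA was amplified by T7 transcription before labelling. Which tool summarised the probes: not given in the sources used here. Arrays hold no read counts; their number sets the precision.

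Of 31042 probe sets without controls, 20826 had 1 gene symbol in the platform annotation, 436 several, and 9780 were not listed there and stay unnamed; each gene was read by its probe set of highest mean mRNA level. Arrays were rescaled to a median of 100 and floored at 10 before log2 (array medians as deposited 189 to 415; 2.04% to 11.0% of probe sets floored). Mean levels at or above 100 were required for counts of differences, and 2-fold was the size counted. With 1 array per group no model was fitted. Counting was tested on simulated data. Alternatives were values as deposited, quantile normalization, a floor of 50, averaged probe sets, no shared-probe (_s_at, _x_at) sets, core genes, no level filter, ChIP without pre-IP, and a background of the top 10% of genes; the last was chosen after seeing the data.

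The members, gene lists and comparisons were chosen with earlier results of these data known. Named were the 8 highest and 8 lowest mRNA differences, the 3 highest and 3 lowest mRNA levels, the 6 highest and 6 lowest pre-IP levels, the 2 highest and 2 lowest members per mark without floored values, the extremes of each other list, and a preset list (Rplp0, Rpl3, Rpl3l, Rpl5, Rpl11, Rpl13a, Rps3, Rps6, Rps27l, Rpl22 and the genes said to lack a probe set); others with values were chosen for their role, their sequence or after values were seen. Python 3.11.15, pandas 2.3.3, numpy 2.4.6, scipy 1.17.1 and matplotlib 3.10.9 were used.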

Additional observations from a re-analysis of the deposited data

How the results depend on the processing

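With 1 array per assay and heart, no replicate could be left out. No paired analysis was possible because the groups hold 1 array each. Medians are given here relative to all genes. The mRNA median stayed above all genes under every alternative run, at 0.17 with quantile normalization and 0.51 as reported. Members at least 2-fold higher numbered 2 with the values as deposited and 0 with quantile normalization, and members at least 2-fold lower numbered 2 with the values as deposited and 2 with no level filter. The sign of the Rpl13a mRNA difference turned with the values as deposited (-0.092) and with quantile normalization (-0.72). The pre-IP level of core genes stood 3.33 over all genes, against 3.01 for all members. Members with H3ac above K9me2 in both hearts numbered 20 as deposited and 8 with quantile normalization, and those below 23 and 32. With quantile normalization, relative enrichment was -0.39 for H3ac, -0.24 for H4ac, -0.28 for K4me2, 0.073 for K9me2, 0.21 for K9me3, 0.15 for K20me3 and 0.21 for K27me2, and the relative failed minus normal difference was 0.10 for H4ac, 0.12 for K4me3, 0.12 for K9me3, 0.046 for K20me3 and 0.13 for K27me2, all of the sign opposite to that reported. ChIP levels without pre-IP subtraction stood over all genes by 3.23 for H3ac, 3.24 for H4ac, 3.68 for K4me2, 2.78 for K4me3, 2.51 for K9me2, 2.79 for K9me3, 2.62 for K20me3 and 2.61 for K27me2, as the members' bright DNA signal was then kept, and the relative difference turned to -0.052 for H3ac and -0.091 for K9me2. Against the top 10% by pre-IP level, the relative enrichment turned to -0.34 for H3ac, -0.30 for H4ac, -0.19 for K4me2, 0.40 for K9me2, 0.20 for K9me3, 0.46 for K20me3 and 0.45 for K27me2, and the difference of K9me2 to -0.054. For the other turned signs the cause was not tested. A floor of 50, averaged probe sets and leaving out shared-probe sets moved none of these summaries past the tolerance of 0.25 for a median or 1.5 times for a count.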

Other observations

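The 36 probe sets that carry several genes including a ribosomal protein symbol, which entered no comparison, had a median mRNA level of 12.73 in the failed heart and 11.88 in the normal heart. Their median mRNA difference was 0.83, between -0.49 and 1.48. Of the 36, 35 were above 0, against 64.1% of single genes that passed the level filter. In the top 10% of genes by mRNA level, 79.8% were above 0. At least 2-fold higher in the failed heart were 7, against 11.9% of filtered genes and 23.0% of the top 10%. At least 2-fold lower were 0, against 3.07% and 0.703%. Their median pre-IP level was 10.43 in the failed heart and 10.49 in the normal heart.

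There were 5 members with a pair of single-gene probe sets each. For Rpl3 the probe sets gave mRNA differences of 0.92 and 0.45, for Rpl7 0.65 and 1.36, for Rpl7l1 0.45 and 0.44, for Rpl14 0.51 and 1.20, and for Rps24 1.41 and 0.03, in each case with the brighter one first. The dimmer probe set of Rpl14 had a pre-IP level of 5.70 in the failed heart and 6.86 in the normal heart, against 8.90 and 9.22 for the brighter one. That of Rps24 had 6.30 and 6.43, against 10.02 and 10.16.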
